A study of Drosophila melanogaster with 2 samples.

Results

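The Enhancer of split complex is a run of small genes on arm 3R of Drosophila melanogaster, and 10 of its genes were followed here in a map of Gsc-eGFP binding. They are 7 genes for basic helix-loop-helix (bHLH) repressors, E(spl)mdelta-HLH, E(spl)mgamma-HLH, E(spl)mbeta-HLH, E(spl)m3-HLH, E(spl)m5-HLH, E(spl)m7-HLH and E(spl)m8-HLH, and 3 Bearded family genes, E(spl)malpha-BFM, E(spl)m2-BFM and E(spl)m4-BFM. They are 10 of the 13968 protein-coding genes on the 7 chromosome arms. The genes were chosen with their bound regions already known, so membership in the thresholded list and the signal of its regions are given as a description, with no test. Every region was taken whose summit, its point of highest signal, lay within the outermost ends of the 10 genes plus 10 kb a side, that is chr3R:25987621-26051008 of dm6. This window of 63.4 kb held 7 of the 1655 regions of the main thresholded list and 56 of the 121914 regions of the ranked list it was taken from.

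The study used 1 group of 2 biological replicates, with no second condition. Each replicate was chromatin from whole embryos aged 0 to 24 h of the strain Gsc-GFP, in which the labels describe an insertion targeting Gsc, and the expressed Gsc-eGFP fusion was precipitated with an anti-GFP antibody. The antibody field itself reads Gsc, both replicates carry the same donor number, and no control library was used here. Whole embryos of this age span mix all cell types and stages, so a region cannot be tied to a tissue or a time.

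Gsc is the fly homologue of Goosecoid, a homeodomain transcription factor. The Enhancer of split genes are classical targets of the Notch pathway: a cleaved Notch receptor joins the DNA-binding protein Su(H) at their regulatory DNA and switches them on. Their bHLH proteins bind DNA and, with the corepressor Groucho, silence proneural genes, which keeps cells next to a future neural cell from taking the same fate, while Bearded family proteins inhibit the ubiquitin ligase Neuralized.

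The summit of each thresholded region is shown with 50 bases on either side, from the plus strand of the Release 6 (dm6) reference. The windows are in order along the arm. Capitals mark the words that were searched for and are given further below. The window at E(spl)m2-BFM belongs to a region of the conservative list that is not in the main list.
CG43116 (chr3R:25996546-25996646): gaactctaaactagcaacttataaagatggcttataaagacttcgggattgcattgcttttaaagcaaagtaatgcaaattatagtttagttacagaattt
E(spl)mdelta-HLH (chr3R:25997259-25997359): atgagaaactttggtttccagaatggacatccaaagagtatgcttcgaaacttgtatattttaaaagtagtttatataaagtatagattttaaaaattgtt
E(spl)malpha-BFM (chr3R:26009038-26009138): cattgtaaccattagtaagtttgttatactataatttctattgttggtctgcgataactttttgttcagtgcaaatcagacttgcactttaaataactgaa
E(spl)m2-BFM (chr3R:26017967-26018067): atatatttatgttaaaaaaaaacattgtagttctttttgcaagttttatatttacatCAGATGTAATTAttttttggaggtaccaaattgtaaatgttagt
E(spl)m3-HLH, distal (chr3R:26020435-26020535): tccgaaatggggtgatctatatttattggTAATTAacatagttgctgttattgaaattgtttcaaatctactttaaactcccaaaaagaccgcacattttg
E(spl)m3-HLH, proximal (chr3R:26021386-26021486): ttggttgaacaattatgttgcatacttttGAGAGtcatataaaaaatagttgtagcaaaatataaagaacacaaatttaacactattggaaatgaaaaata
E(spl)m7-HLH (chr3R:26036556-26036656): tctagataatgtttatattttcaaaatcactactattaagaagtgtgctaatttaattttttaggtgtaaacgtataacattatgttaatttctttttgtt
gro (chr3R:26042463-26042563): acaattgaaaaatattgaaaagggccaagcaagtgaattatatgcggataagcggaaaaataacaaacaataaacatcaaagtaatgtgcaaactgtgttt

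These windows are rich in A and T. The share of G and C within 50 bp of the summit ran from 20.8% to 31.7% over the 7 main-list regions and had a median of 29.7%. The median was 33.7% over all main-list regions on the arms and 48.5% over all ranked regions.

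The signal of a region is the authors' own value, on a scale that is not given in the sources used here, and a score is the scaled irreproducible discovery rate (IDR), higher where a region ranked more reproducibly. The lowest score in the main list was 830. Its regions had a median signal of 97.3, and 80.7% of them shared a width of 336 bp, which 6 of the 7 regions at the complex also had. The list of replicate 1 held 1188 thresholded regions and that of replicate 2 held 967. No counts are given, which leaves the depth of each library unknown.

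Along the complex, thresholded regions lay upstream of 3 bHLH genes and 1 Bearded family gene, and in introns of CG43116 and gro, the genes that flank the complex at either end. The signal of the 7 regions ran from 71.5 to 258 with a median of 136, and 5 of the 7 were above the median of the whole list. The plot of regions along the complex sets them beside the weaker ranked regions.

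**Figure D1:**
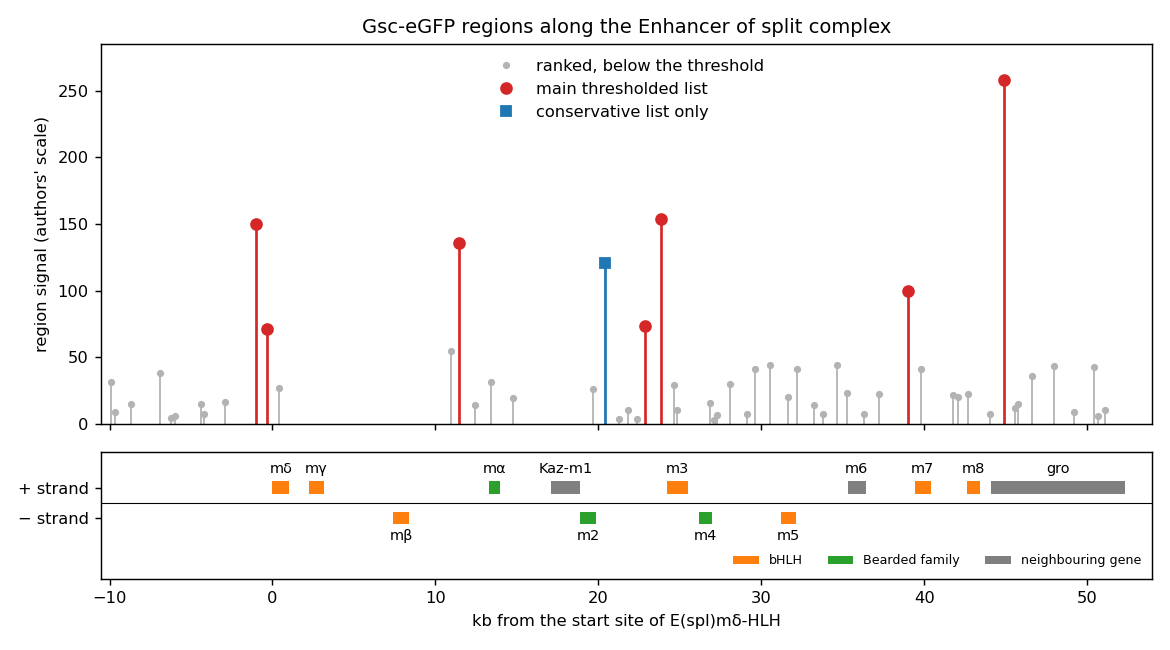
Signal of every ranked region (upper panel, authors' scale) against its position in kb from the start site of E(spl)mdelta-HLH, with genes drawn by strand below. Red circles are the 7 regions of the main list, the blue square is the region of the conservative list alone, and grey points are ranked regions below the threshold; the tallest, at gro, has a signal of 258.

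Among the bHLH genes, E(spl)m3-HLH (FBgn0002609, chr3R:26021823-26023127, plus strand) was the one with a pair of thresholded regions. The proximal region (chr3R:26021268-26021603, intergenic, signal 154) had its summit 387 bp upstream of the start site, and the distal region (chr3R:26020317-26020652, signal 73.9) lay 1338 bp upstream, in an exon of the noncoding gene lncRNA:CR43644. In the replicates' own lists the proximal region had a signal of 72.2 and 87.4, or 79.8 ± 10.8 (SD, n = 2), and was thresholded in both. The distal region had 41.4 and 41.6, or 41.5 ± 0.146 (SD, n = 2), and was thresholded in neither. The distal values were thus the closest pair among the 8 regions, at the lower level, and the proximal region ranked 439 of 1655 by signal against 1207 for the distal one.

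E(spl)m7-HLH (FBgn0002633, chr3R:26037038-26038019, plus strand) had 1 intergenic region (chr3R:26036438-26036773, signal 99.9) with its summit 432 bp upstream of the start site. Its signal was 67.2 in replicate 1 and 33.0 in replicate 2, or 50.1 ± 24.2 (SD, n = 2). The region was thresholded in replicate 1 and not in replicate 2, where it ranked 2129 by signal.

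E(spl)mdelta-HLH (FBgn0002734, chr3R:25997621-25998633, plus strand) is the first gene of the complex, and its region (chr3R:25997141-25997476, signal 71.5) was the weakest of the 7. Its signal was 25.7 in replicate 1 and 46.4 in replicate 2, or 36.0 ± 14.6 (SD, n = 2), and only replicate 2 passed the threshold. The intergenic summit lay between divergent start sites, 312 bp upstream of E(spl)mdelta-HLH and 313 bp upstream of CG43116. The assignment to the member gene thus rested on 1 bp, and in each replicate's own list the summit was nearer to CG43116, at 284 bp against 341 bp in replicate 1 and 302 bp against 323 bp in replicate 2. A stronger region (chr3R:25996428-25996763, signal 150.1) lay in an intron of CG43116, 1025 bp upstream of the E(spl)mdelta-HLH start, and was thresholded in both replicates with a signal of 89.7 and 68.0, or 78.8 ± 15.4 (SD, n = 2).

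The other 4 bHLH genes were nearest to no thresholded region. E(spl)mgamma-HLH (FBgn0002735, chr3R:25999851-26000761, plus strand) and E(spl)mbeta-HLH (FBgn0002733, chr3R:26005046-26006023, minus strand) were not nearest to any ranked region either, and their start sites were 2542 and 3065 bp from the closest thresholded summit. Both starts fell in a stretch of 10.5 kb with no ranked summit, between 25998037 and 26008554. Of the 31735 gaps between successive ranked summits on 3R, 362 (1.14%) were at least as long. E(spl)m5-HLH (FBgn0002631, chr3R:26028854-26029735, minus strand) had 5 ranked regions, the strongest with a signal of 44.3, and 30.01 and 10.5 in the replicates. E(spl)m8-HLH (FBgn0000591, chr3R:26040240-26041008, plus strand) had 3, the strongest 74 bp inside its start with a signal of 22.8, and 11.7 and 16.9 in the replicates.

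Of the Bearded family genes, E(spl)malpha-BFM (FBgn0002732, chr3R:26010893-26011568, plus strand) had the region farthest from a start site among the 7. It was intergenic (chr3R:26008920-26009255, signal 136), with its summit 1805 bp upstream of E(spl)malpha-BFM and 3065 bp upstream of the divergent gene E(spl)mbeta-HLH. The signal was 76.4 in replicate 1 and 59.5 in replicate 2, or 68.0 ± 11.9 (SD, n = 2), and both replicates passed the threshold. A weaker region next to it (chr3R:26008386-26008721), with a signal of 54.7, was not in the list; its score was 460, against the list minimum of 830.

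E(spl)m2-BFM (FBgn0002592, chr3R:26016514-26017470, minus strand) was nearest to a region on which the authors' lists of both replicates differed. The intergenic region (chr3R:26017849-26018184, signal 121) had its summit 547 bp upstream of the start site. It was in the conservative list, with a −log10 IDR of 2.40, and missing from the main list, whose ranking gave it 0.16. By signal it would have come in at rank 626 of the main list. Its signal was 73.8 in replicate 1 and 29.3 in replicate 2, or 51.6 ± 31.5 (SD, n = 2), the widest spread of the 8 regions, and it was thresholded in replicate 1 alone. E(spl)m4-BFM (FBgn0002629, chr3R:26023821-26024579, minus strand) had 5 ranked regions and none past a threshold. Its strongest, 1146 bp upstream, had a signal of 29.96, and 20.9 and 6.93 in the replicates.

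**Figure D2:**
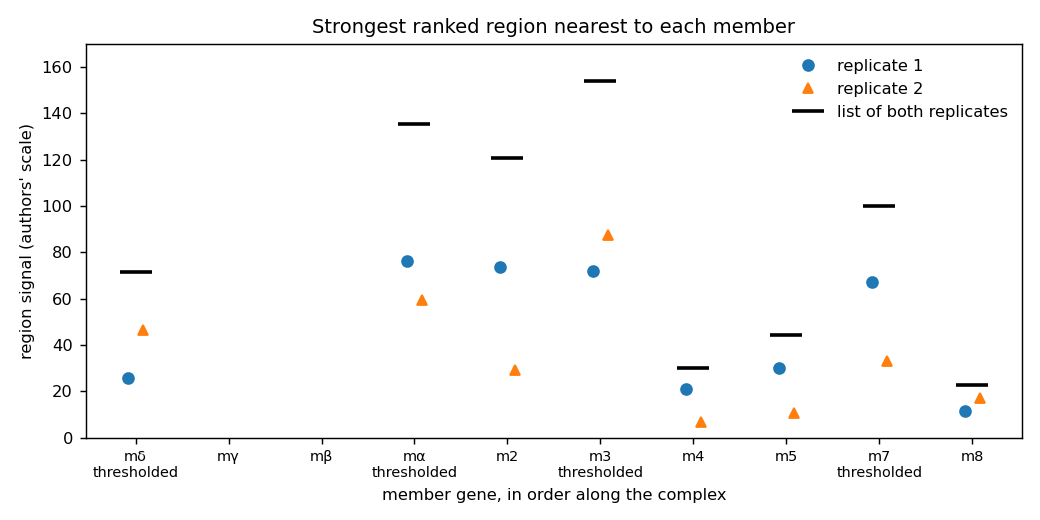
Signal of the strongest ranked region nearest to each member gene (authors' scale), in order along the complex, in replicate 1 (circles), replicate 2 (triangles) and the list of both replicates (bars). The members with a thresholded region reach 71.5 to 154 in the list of both, E(spl)m2-BFM reaches 121 with replicates of 73.8 and 29.3, and E(spl)mgamma-HLH and E(spl)mbeta-HLH have no ranked region.

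The members are interleaved with and flanked by genes of other kinds. The strongest region of the window lay at gro (chr3R:26041736-26049911, plus strand), which encodes Groucho, the corepressor that the bHLH proteins recruit. This region (chr3R:26042418-26042587, signal 258) was in an intron, was 170 bp wide and ranked 175 of 1655. Its signal was 149 in replicate 1 and 107 in replicate 2, or 128 ± 29.5 (SD, n = 2), and both passed the threshold. The annotation gives 4 gro start sites, and the summit was 128 bp upstream of the nearest, 777 bp inside the outermost and 2273 bp beyond the start of E(spl)m8-HLH. Kaz-m1, between E(spl)malpha-BFM and E(spl)m2-BFM, had no ranked region. E(spl)m6-BFM, a Bearded family gene that was not among the 10, had a strongest region with a signal of 44.0, and 21.2 and 23.6 in the replicates, 646 bp upstream of its start.

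Counted by gene, 4 of the 10 members (40.0%) were nearest to a main-list region, and 8.08% of all protein-coding genes were. The rule that chose the genes used these regions, so nothing is read from that difference. The 4 were E(spl)mdelta-HLH, E(spl)malpha-BFM, E(spl)m3-HLH and E(spl)m7-HLH, or 3 of the 7 bHLH genes and 1 of the 3 Bearded family genes. In the conservative list there were also 4, with E(spl)m2-BFM in place of E(spl)mdelta-HLH, against 7.68% of all genes. The list of replicate 1 gave the same 4 genes as the conservative list, against 6.29% of all genes. Without replicate 1, that is in the list of replicate 2, the count fell to 2 genes, E(spl)malpha-BFM and E(spl)m3-HLH, against 5.0% of all genes, or 699 of 13968. A count of genes with a summit inside them or within 2 kb of an end gave 5 members, with E(spl)m8-HLH added through the summit in gro, against 11.8% of all genes. E(spl)malpha-BFM and E(spl)m3-HLH were the members called in each of these counts, which use start sites or bodies of protein-coding genes. When start sites of all gene types were used, E(spl)m3-HLH lost its call and 3 members were left. Both of its regions were then nearest to lncRNA:CR43644, at 591 bp against 1338 bp for the distal and 360 bp against 387 bp for the proximal one. No share over all genes is given for start sites of all gene types, so nothing is read from the count of 3.

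Counted by region, 7 of the 56 ranked regions in the window (12.5%) were in the main list, against 1.25% of ranked regions on all arms and 0.983% on 3R. The window held 1.10 main-list regions per 10 kb, and arm 3R held 0.0973. Ranked regions numbered 8.83 per 10 kb in the window and 9.89 on 3R. The same rule was applied to a pair of other gene clusters of neural development. The window of the achaete-scute complex on X, which encodes proneural bHLH activators, held 54 ranked regions and 0 of the main list, and its strongest, nearest to ase, had a signal of 49.2. The window of the Bearded complex on 3L held 4 ranked regions and 0 of the main list, with a highest signal of 27.2. These windows were 113 and 50.5 kb long, with 4.77 and 0.791 ranked regions per 10 kb, and the Bearded window was set from 4 genes. Beside the share of 1.25% on all arms, 0 of 54 and 0 of 4 are near what the arms hold. Nothing is read from the counts of 0.

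Both replicates ranked all 8 regions, and their summits were at most 64 bp from those of the combined list in replicate 1 and 37 bp in replicate 2. Of the 7 main-list regions, 4 overlapped a thresholded region of both replicates by at least 1 bp, which were those at CG43116, E(spl)malpha-BFM, the proximal site of E(spl)m3-HLH and gro. This was the case for 43.5% of main-list regions on the arms. A further 2 regions overlapped one in a single replicate, E(spl)mdelta-HLH in replicate 2 and E(spl)m7-HLH in replicate 1, and the distal region of E(spl)m3-HLH in neither. The log2 ratio of replicate 2 over replicate 1 had a median of -0.36 over the 7, from -1.03 at E(spl)m7-HLH to 0.85 at E(spl)mdelta-HLH. Over the 1409 main-list regions on the arms with a value in both replicates the median was -0.24, with an SD of 0.61. These extremes lay more than 1 SD from that median, on opposite sides.

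**Figure D3:**
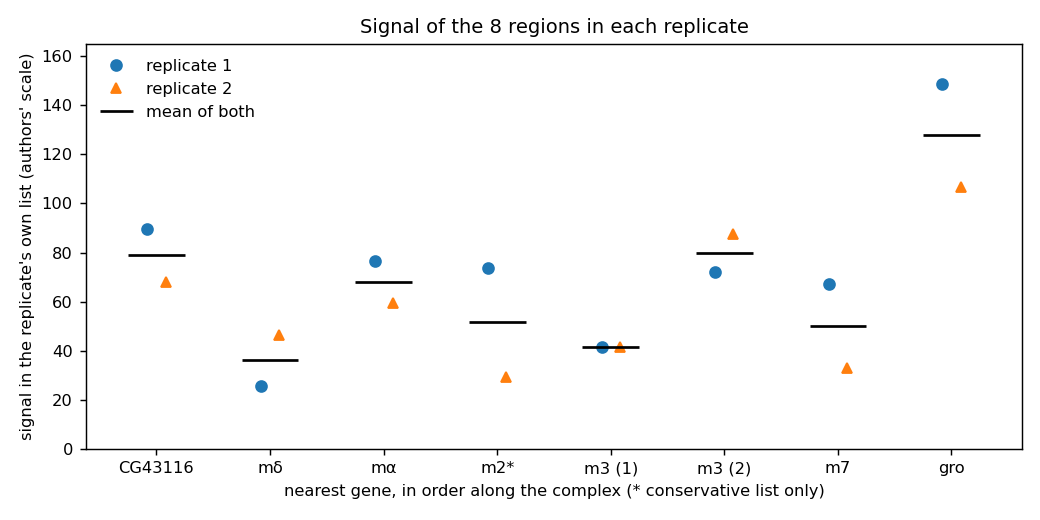
Signal of each of the 8 regions in the replicates' own lists (authors' scale), with circles for replicate 1, triangles for replicate 2 and a line for their mean. Replicate 1 is higher at CG43116, E(spl)malpha-BFM, E(spl)m2-BFM, E(spl)m7-HLH and gro, replicate 2 is higher at E(spl)mdelta-HLH and the proximal site of E(spl)m3-HLH, and the distal site has 41.4 and 41.6.

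The regions below the threshold were spread along the complex. The 49 of them had a median signal of 16.2. Over all 56 ranked regions of the window, with the main list included, the median was 21.3. It was 19.9 over all ranked regions on the arms and 20.7 on 3R. The strongest below the threshold were the E(spl)m2-BFM region at 121, the second E(spl)malpha-BFM region at 54.7 and the E(spl)m5-HLH region at 44.3. At the threshold of 830, the region just inside was that of E(spl)mdelta-HLH, with a score of 892. The highest scores in the window outside it were those of the second E(spl)malpha-BFM region with 460 and the E(spl)m6-BFM region with 431. By position, 6 of the 7 main-list regions had their summit upstream of the nearest start site, against 18 of the 49 weaker ones, and the shares were 59.3% of the main list and 39.1% of ranked regions on the arms. None of the 7 main-list summits lay in coding sequence, while 19 of the 49 weaker ones did. No share over the arms is given for coding sequence, so nothing is read from these counts.

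**Figure D4:**
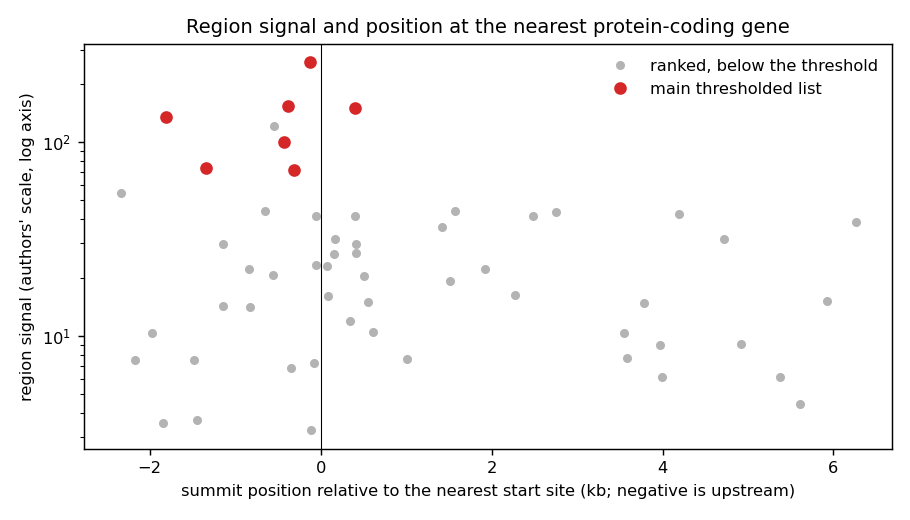
Region signal (authors' scale, log axis) against the summit's distance in kb from the nearest protein-coding start site, negative values being upstream. Of the 7 main-list regions (red), 6 lie upstream of that start, while 18 of the 49 weaker regions (grey) do. The region in CG43116 lies 400 bp inside its gene. The gro region, 128 bp upstream of the nearest gro start, also lies inside its gene, in an intron.

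The regions were searched on both strands for the short words that follow. The Su(H) words were GTGGGAA and also GTGAGAA. The E(spl) HLH words were CACGTG, then CACGCG and then CACNAG. The proneural E boxes were CAGCTG, then CAGGTG and then CAGATG. The homeodomain words were TAATCC, the word known for Goosecoid proteins, and TAATTA. The Zelda word CAGGTA was searched as well, with GAGAG and a pair of words chosen from earlier results on these lists, TAAGCA together with ACAGTG. A match is a description of the letters and not a binding site.

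Within 50 bp of the summit, 0 of the 7 main-list regions held a Su(H) word, against 1.90% of main-list regions and 2.14% of ranked regions on the arms. None of the 7 held an E(spl) HLH word there (11.1% and 17.5% of the same lists), a proneural E box (9.59% and 15.3%) or TAATCC (3.67% and 2.91%). TAATTA was in 1, the distal E(spl)m3-HLH region (7.89% and 4.57%), and GAGAG in 1, the proximal one (8.57% and 12.4%). CAGGTA (1.97% and 2.25%), TAAGCA (9.66% and 4.40%) and ACAGTG (6.12% and 4.13%) were in none of the 7. The E(spl)m2-BFM region of the conservative list held CAGATG followed directly by TAATTA, printed in capitals above.

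Outside the summit windows but within the regions, further words were found. Over whole regions, 4 of the 7 (57.1%) held an E(spl) HLH word, against 37.6% of the main list, and 3 held ACAGTG (42.9% against 27.3%). TAATTA was in 2 (28.6% against 18.4%). A Su(H) word was in 1 of the 7 (14.3%, against 9.18% of the main list), as was TAATCC (against 8.03%). A proneural E box was in 1 (against 32.2%), TAAGCA in 1 (against 20.1%), GAGAG in 2 (against 35.4%) and CAGGTA in 0 (against 6.53%). The CACGTG words, the Su(H) word and the TAATCC words are shown with 20 bases on each side, from the plus strand and with the word in capitals, as they show where the letters lie relative to the summits.
E(spl)mdelta-HLH, E(spl) HLH word (chr3R:25997420-25997465): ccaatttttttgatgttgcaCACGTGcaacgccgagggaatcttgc
E(spl)m3-HLH distal, E(spl) HLH word (chr3R:26020518-26020563): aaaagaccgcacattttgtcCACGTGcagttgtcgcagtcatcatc
E(spl)m3-HLH distal, Su(H) word (chr3R:26020324-26020370): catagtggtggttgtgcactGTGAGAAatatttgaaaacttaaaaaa
E(spl)m3-HLH proximal, TAATCC word (chr3R:26021494-26021539): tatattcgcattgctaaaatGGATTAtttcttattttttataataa
E(spl)m2-BFM, first TAATCC word (chr3R:26017928-26017973): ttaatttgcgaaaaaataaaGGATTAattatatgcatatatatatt
E(spl)m2-BFM, second TAATCC word (chr3R:26018054-26018099): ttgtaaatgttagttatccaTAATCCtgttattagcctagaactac
CACGTG began 131 bp after the summit at E(spl)mdelta-HLH and 53 bp after the distal summit at E(spl)m3-HLH. The other E(spl) HLH words are not printed: 1 more in each of these regions, a pair in the E(spl)malpha-BFM region and 1 in the E(spl)m7-HLH region, 92 bp from the summit. The Su(H) word began 141 bp before the distal summit and shares its first 2 bases with an ACAGTG word on the other strand. TAATCC lay on the minus strand at the proximal E(spl)m3-HLH region, 78 bp after its summit. At E(spl)m2-BFM it lay on both sides, 69 bp before the summit on the minus strand, where it overlaps a TAATTA word, and 57 bp after it on the plus strand.

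Su(H) words were also searched for near the members' start sites, a search chosen after the words at the summits had been counted. Within 1 kb upstream of the start, 9 of the 10 members held at least 1, against 19.4% of 13967 protein-coding genes. E(spl)malpha-BFM held 5, E(spl)mgamma-HLH and E(spl)m5-HLH 4 each, and E(spl)m3-HLH none. Of these upstream words, the nearest to a summit were 209 bp away at E(spl)m7-HLH, 254 bp from the CG43116 summit at E(spl)mdelta-HLH, and 415 bp away at E(spl)m2-BFM. At E(spl)malpha-BFM the nearest of the 5 was 1047 bp from the summit. The members with 4 or more words thus included 1 with a main-list region and 2 without.

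Other genes of the Notch pathway were counted in the same way, from a list of 20 matched genes. Of these, 4 were nearest to a main-list region, against 8.08% of all protein-coding genes. The 4 include gro, whose region is among the 7 of the window. The list was also chosen with earlier results known, so nothing is read from that difference. Besides gro they were nej, which encodes the CBP acetyltransferase, aph-1, for a subunit of the gamma-secretase that cleaves Notch, and rumi, for a glucosyltransferase that modifies Notch. The nej region, 653 bp upstream, had a signal of 113, with 48.0 and 62.4 in the replicates, or 55.2 ± 10.2 (SD, n = 2). The rumi region, 36 bp upstream, had 105, with 56.3 and 50.3, or 53.3 ± 4.24 (SD, n = 2). The aph-1 region, 185 bp upstream, had 59.1, with 35.7 and 49.6, or 42.6 ± 9.80 (SD, n = 2). It overlaps a stronger region, nearest to Snx21, with a signal of 157, and both matched the same region in each replicate. All 3 were weaker than the gro region in both replicates. The conservative list called the same 4 genes, while without replicate 2 the count fell to 2, gro and rumi.

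Counted by a summit inside the gene or within 2 kb of it, 6 of the 20 were called, against 11.8% of all genes. They again include gro, with the receptor gene N and the coactivator gene mam added. An intron of N held a main-list region (chrX:3162360-3162695) with a signal of 226, and 112 and 109 in the replicates, or 111 ± 1.82 (SD, n = 2), thresholded in both. Its nearest protein-coding start was that of CG18508, 10612 bp away. The strongest of the ranked regions nearest to the N start itself had a signal of 12.3. An intron of mam held 2 main-list regions with signals of 191 and 190.0, each thresholded in both replicates and nearest to the start of CG18371. Su(H) was not nearest to any ranked region. Of 4 matched genes for other Hairy and E(spl) related repressors, 1 was called, against 8.08% of all genes. It was Hey, with a region 254 bp inside its start site, in coding sequence. Its signal was 72.8, with 40.8 and 26.7 in the replicates, or 33.7 ± 9.95 (SD, n = 2), and its score of 832 was just above the minimum of 830. In the own list of either replicate 0 of these 4 genes were called. The shares of all protein-coding genes were 6.29% in replicate 1 and 5.0% in replicate 2, so nothing is read from this 0. The 14 matched neural precursor genes include the proneural genes that the E(spl) bHLH proteins silence. Of the 14, 0 were nearest to a main-list region, against 8.08% of all protein-coding genes, so nothing is read from the 0. The closest was tap, an atonal family gene, with a signal of 70.2, 25.1 and 40.6 in the replicates, and a score of 816 just under the threshold.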

How the data were processed

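Gsc-eGFP ChIP-seq regions from 2 biological replicates of whole embryos were read from lists of regions on dm6, the build per the labels. Fragments were sonicated to 200 to 800 bp, per the labels. Which aligner and peak caller were used is not given in the sources used here. For each region the authors deposited a signal value on an unstated scale and a score, which is a scaled irreproducible discovery rate (IDR). The ranked lists also hold the −log10 IDR that the authors computed. The files hold no counts, so depth is unknown and no interval for counting error is given. The 16 unnamed columns in the ranked lists of both replicates were left out.

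Of the 2 thresholded lists of both replicates, the main list here is the one not marked conservative. The signal of a region in each replicate came from the region with the longest overlap in that replicate's own ranked list, and SDs are over these 2 values. Summits were assigned to the nearest start site of a protein-coding gene in Ensembl release 115 on the 7 arms, a negative distance being upstream. The ends of the 10 members were the same in RefSeq and Ensembl. Sequence came from the RefSeq Release 6 genome. A word was counted within 50 bp of a summit on both strands.

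The members and gene lists were chosen with earlier results of these data known. The text names every member, every other gene nearest to a thresholded region in the window, E(spl)m1 (Kaz-m1), E(spl)m6-BFM and gro, and the genes of the other lists that were nearest to a thresholded region, with N and Su(H) in any case. The genes tap, ase, mam, numb, Snx21, CG18508 and CG18371 were named after their values were seen. Some listed genes are not used here: 1 of the Notch pathway list, 2 of the Hairy and E(spl) related list and 2 of the neural precursor list. No test was run, since there is 1 group. Alternatives were other lists, thresholds, flanks and assignments. Scripts used Python 3.11.15, numpy 2.4.6, pandas 2.3.3 and matplotlib 3.10.9, and were tested on simulated data.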

Additional observations from a re-analysis of the deposited data

How the results depend on the processing

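The window held 7 main-list regions and 4 members nearest to one, and both counts were the same in the conservative list and after keeping only the strongest of overlapping regions. Leaving out a replicate, by taking the other replicate's own list, gave 5 to 6 regions and 2 to 4 members, with 2 when replicate 1 was left out. The median signal, 136 in the main list, was 68.0 to 75.1 in the replicates' own lists, which are on another level. It was 150.1 over the stronger 50% of regions. With no flank, 4 regions were left with a median of 118, and the ranked regions fell from 56 to 35. Notch pathway genes ranged from 2 to 5 when a replicate was left out. The count of regions with a Su(H) word rose from 0 to 1 over whole regions. Some of these changes follow from the settings. A narrower window holds fewer regions, the stronger 50% of regions have a higher median, and a longer stretch holds as many words or more. In the list of replicate 2, the E(spl)mdelta-HLH summit was nearer to CG43116 and the E(spl)m7-HLH region was not thresholded. Neither gene was thus called there. Why the replicates differed was not tested, nor was the cause of the other changes. Start sites of all gene types gave 3 members, without E(spl)m3-HLH. Taking regions in either list of both replicates, an alternative chosen after seeing the data, gave 8 regions and 5 members. No share over all genes is given for either of these settings. The region counts under the alternatives are likewise given without a share of ranked regions. Nothing is read from those counts. No paired analysis was possible because there is only 1 group and no test was run. Depth is unknown, so how far it limits the weak regions was not tested.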
